A study of Mus musculus with 12 samples.

Results

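The genes described here are 10 components of the machinery that decides whether a mammalian cell leaves G1 phase and copies its DNA: the D-type cyclins Ccnd1, Ccnd2 and Ccnd3, the E-type cyclins Ccne1 and Ccne2, the cyclin-dependent kinases Cdk2, Cdk4 and Cdk6, and the pocket proteins Rb1 and Rbl1. They were taken by name as the rows whose Entrez identifiers match these symbols among 27179 genes in a table of read counts. No gene of the set was dropped for its values, but the set was named with earlier results of these data known. All 10 were found and passed the filter on low counts. The messenger RNA came from mouse embryonic fibroblasts of the C57BL/6 strain, the connective-tissue cells of E13.5 wild-type embryos, kept in low oxygen (3%). All 12 samples received a compound at 10 µM, either WM-8014, named in the labels as a MYST inhibitor (MYST enzymes are histone acetyltransferases), or WM-2474, named there as its inactive control, and were harvested after 96 h or 240 h, so that none was left without a compound. Each of the 4 groups holds a library of culture 5, of culture 6 and of culture 7.

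In G1, growth signals raise the D-type cyclins, which bind and activate CDK4 and CDK6. These kinases phosphorylate the pocket proteins, which otherwise bind E2F transcription factors and hold back the genes of DNA replication. The E-type cyclins, themselves E2F targets, then activate CDK2 and complete the step into S phase. In fibroblasts that stop dividing for good, inhibitors of the INK4 and CIP/KIP families block these kinases and unphosphorylated RB1 keeps E2F target genes silent.

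The 12 libraries held 10147466 to 45903190 reads, a ratio of 4.52, and the 10 genes took 0.19 to 0.269% of them. Their raw counts ran from 59 reads, for Ccne2, to 47608, for Ccnd2, so that each gene was well above the 3-read limit of 0.0654 to 0.296 CPM. The 10 fibroblast markers examined summed to 30242 to 36926 CPM at 96 h and to 49679 to 54072 CPM at 240 h. Single markers differed between the compounds. At 240 h the means of Lum, Dcn, Pdgfra, Col3a1 and Thy1 were lower with WM-8014 and those of Col1a1, Col1a2, Pdgfrb, Vim and Fn1 higher. Lum was at 16.0 ± 7.73 CPM under WM-2474 and 3.44 ± 1.9 CPM under WM-8014, and Fn1 at 11907 ± 809 and 14552 ± 464 CPM. Macrophage markers summed to at most 12.3 CPM, endothelial ones to at most 7.6, epithelial ones to at most 27.7 and neuronal and glial ones to at most 92.0. The 6 skeletal muscle markers summed to 136 to 149.8 CPM under WM-2474 and 153 to 182 CPM under WM-8014 at 96 h, and to 260.4 to 345 CPM and 498 to 718 CPM at 240 h. Nearly all of this came from the actin and desmin genes Acta1 and Des. At 240 h Acta1 was at 267 ± 45.8 CPM under WM-2474 and 524 ± 106 CPM under WM-8014, and Des at 30.2 ± 3.46 and 92.5 ± 12.2 CPM. Of the other markers on this list, Myod1 and Ckm had no reads in the WM-8014 240 h group, Myog had 1 and Myh3 had 7. The part of these markers in the results was not tested. The labels give the cells as female, but every library held Ddx3y, a Y-linked gene, at 96.2 to 124 CPM and at most 4 reads of Xist. A pair of control libraries, WM-2474 at 96 h in cultures 6 and 7, differed from all others in Misp3, a gene known from earlier results of these data, at 0.723 and 0.942 CPM against 79.8 to 285 CPM. They are called divergent for that gene only. Over all genes compared, the chi-square per degree of freedom between cultures 5 and 6 of that group was 3.23. It was 3 between 5 and 7 and 2.98 between 6 and 7, in a range of 2.1 to 7.13 over all groups. Counts of calls at 96 h, and the calls of the 10 genes that were lost, are also given without these divergent controls, which leaves 1 library in that group, assumed to vary like the rest. The shares of all genes called in that setting are not given, so its counts, of the 10 genes and of the lists, have no background beside them. Levels are reads of a gene per 1000000 (CPM), scaled by TMM, as mean ± SD over 3 cultures. Fold changes are log2 values with their standard errors (SE) and Benjamini-Hochberg adjusted p from edgeR's quasi-likelihood test over 14136 genes. In bulk RNA, fewer cells expressing a gene and less RNA per cell cannot be told apart.

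WM-8014 split the G1 genes. At 240 h Ccnd1, Ccnd2, Cdk6 and Rb1 were higher than with WM-2474 and Ccnd3, Ccne1, Ccne2, Cdk2, Cdk4 and Rbl1 were lower. Of the 10 genes, 4 rose and 6 fell, against 21.2% and 21.4% of all genes tested, and the CPM ranges of the groups did not overlap for any of the 10, as for 51.8% of all genes. At 96 h 1 gene, Ccnd2, rose and 6 fell, namely Ccnd3, Ccne1, Ccne2, Cdk2, Cdk4 and Rbl1, against 10.9% and 11.8% of all genes. Without the divergent controls 1 of the 10, Ccnd2, passed at 96 h, and all 10 did at 240 h. The shares of all genes above come from all 12 libraries and are no background for these counts. Without the divergent controls the 96 h log2 fold changes were -0.14 for Ccnd3, -0.60 for Ccne2, -0.20 for Cdk2 and -0.10 for Cdk4, close to or beyond those with all libraries. They were -0.19 for Ccne1 and -0.18 for Rbl1, nearer to 0. With all 12 libraries, the CPM ranges at 96 h did not overlap for 8 of the 10, against 38.1% of all genes. The median log2 fold change was -0.12 at 96 h and -0.22 at 240 h, beside 0.00 and 0.01 over all genes tested. No fold change of the 10 reached 2-fold at either time. The 10 genes were chosen with earlier results of these data known, so these counts describe the group and test nothing about it. The proliferation marker Mki67 fell at both times, from 259 ± 13.6 to 197 ± 11.3 CPM at 96 h and from 167 ± 7.46 to 57.9 ± 4.11 CPM at 240 h, and its part in the changes was not tested.

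**Figure D1:**
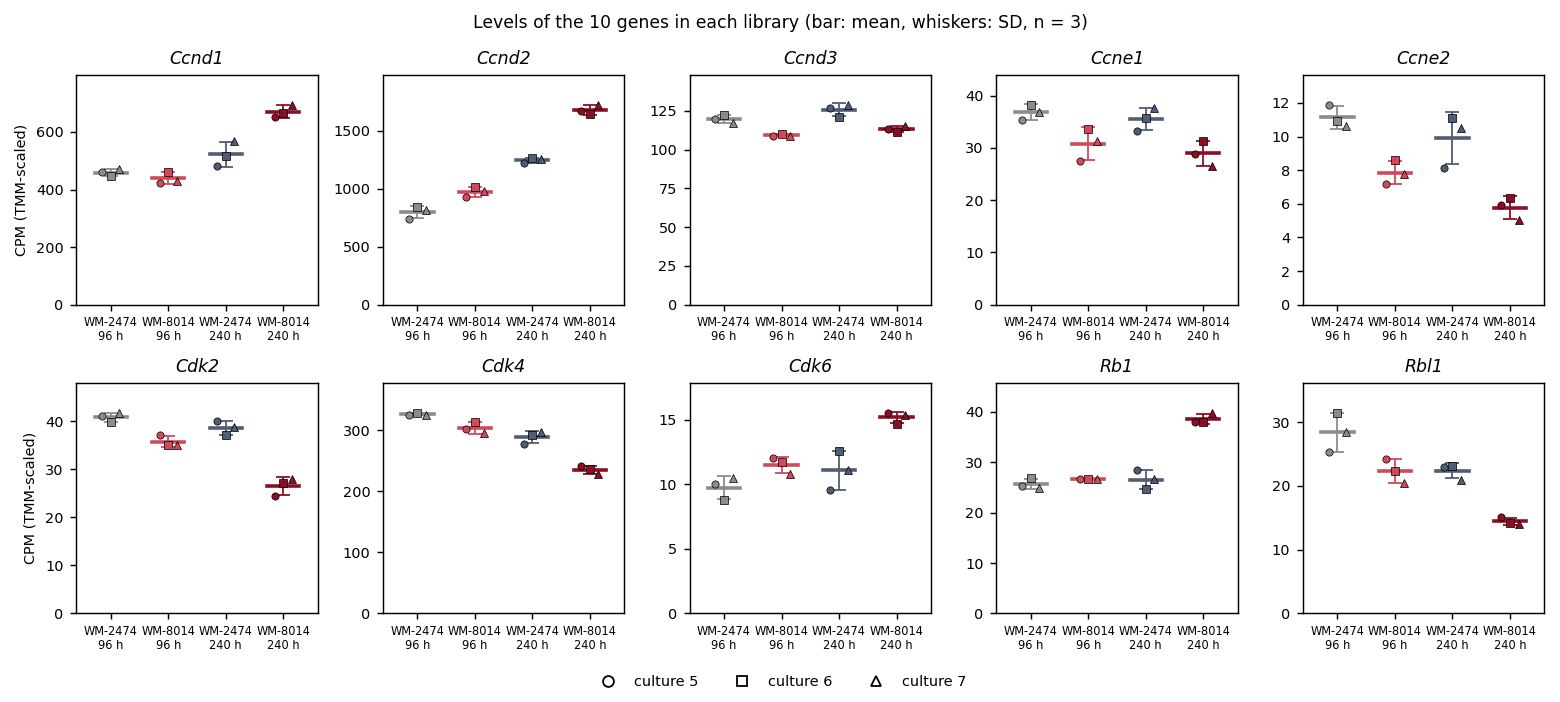
TMM-scaled CPM of the 10 genes in the 12 libraries, by compound and time. Points are single cultures (marker shape gives the culture number), bars means and whiskers SD (n = 3), and each axis starts at 0. At 240 h the WM-8014 libraries sit above the WM-2474 libraries for Ccnd1, Ccnd2, Cdk6 and Rb1 and below them for the other 6 genes.

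**Figure D2:**
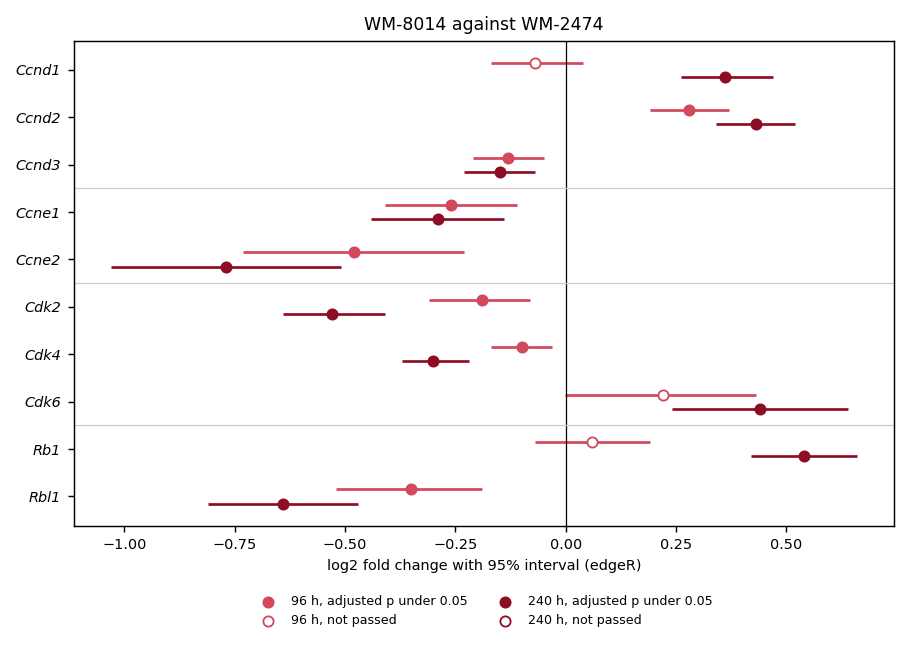
Log2 fold change of WM-8014 against WM-2474 with its 95% interval, at 96 h and 240 h, for the D-type cyclins, E-type cyclins, kinases and pocket proteins from top to bottom. Filled points passed an adjusted p of 0.05; at 96 h Ccnd1, Cdk6 and Rb1 did not, and at 240 h all 10 genes did.

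The D-type cyclin genes did not move together. Ccnd2 (Entrez 12444, chromosome 6, 127125162 to 127152188, GRCm38.p6) was at 739, 839 and 819 CPM in cultures 5, 6 and 7 with WM-2474 at 96 h and at 924, 1011 and 983 CPM under WM-8014. At 240 h the same cultures had 1219, 1261 and 1255 CPM under WM-2474 and 1665, 1646 and 1724 CPM under WM-8014. The 4 groups formed 4 separate levels, lowest in the 96 h control and highest in the 240 h inhibitor group. Ccnd2 rose with WM-8014 by 0.28 at 96 h (SE 0.0432, adjusted p = 8.89e-05) and by 0.43 at 240 h (SE 0.0429, adjusted p = 5.34e-08), in 3 of 3 cultures each time. Its call held under every alternative tried, with adjusted p of at most 0.00676 and 0.000118. The non-coding RNA gene 9330179D12Rik shares 368 exon bases with Ccnd2 on the opposite strand and had 163 reads over the 12 libraries.

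Ccnd1 (Entrez 12443, chromosome 7, 144929931 to 144939831), the D-type cyclin most closely tied to mitogen signalling, was at 460.1, 447 and 469.8 CPM under WM-2474 at 96 h and 423, 462 and 430.5 CPM under WM-8014. These ranges overlapped, with a log2 difference of -0.07 (95% interval -0.17 to 0.04, adjusted p = 0.371). At 240 h it was at 481, 517 and 567 CPM under WM-2474 and at 653, 664 and 695 CPM under WM-8014, without overlap. It rose there by 0.36, or 1.29-fold (SE 0.0492, adjusted p = 1.06e-05, at most 0.000487 over the alternatives), and was higher in 3 of 3 cultures. The protein-coding gene LTO1 overlaps the span of Ccnd1, and their shared exon bases were not computed. LTO1 differed by 0.16 at 96 h and 0.17 at 240 h between the compounds (adjusted p = 0.205 and 0.097).

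Ccnd3 (Entrez 12445, chromosome 17, 47505051 to 47599689) was the steadiest of the 10 genes, with group means between 109 and 125 CPM. Its 3 WM-8014 libraries at 96 h had 109 to 109.8 CPM, below the 117 to 122 CPM of the controls, and at 240 h 111 to 115 CPM against 121 to 129 CPM. It fell by 0.13 at 96 h (SE 0.0376, adjusted p = 0.0151) and by 0.15 at 240 h (SE 0.0369, adjusted p = 0.00218). The 96 h call was lost without the culture 6 control library of 96 h (adjusted p = 0.0646), without culture 5 or 6 in all groups (0.111 and 0.113) and without the divergent controls (0.173), in a range of 0.0121 to 0.225. Thinned to the smallest library total, the counts gave 0.225. On the opposite strand, the ribosome biogenesis gene Bysl shares 361 exon bases with Ccnd3 in GENCODE M21. Bysl itself differed by -0.05 and -0.01 between the compounds (adjusted p = 0.648 and 0.953).

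Per kilobase of the gene length deposited with the counts, the 3 D-type cyclins summed to 312 ± 8.7 CPM under WM-2474 and 332 ± 12.9 CPM under WM-8014 at 96 h, and to 409 ± 15.1 and 517 ± 13.1 CPM at 240 h. Ccnd2 took 44.3 ± 1.76% of this sum with WM-2474 and 50.7 ± 0.627% with WM-8014 at 96 h, and 52.8 ± 1.31% and 56.2 ± 0.258% at 240 h. The share of Ccnd3 was 17.0 ± 0.638% and 14.5 ± 0.493% at 96 h, then 13.6 ± 0.587% and 9.66 ± 0.149%. The ranges of these shares did not overlap between the compounds at either time. The share of Ccnd1 was 38.7 ± 1.5% and 34.8 ± 0.539% at 96 h and overlapped at 240 h, at 33.6 ± 1.56% and 34.1 ± 0.401%. Shares and sums rest on the deposited lengths, which are 5772 bases for Ccnd2 and 2261 for Ccnd3, against 9409 and 8775 exon bases over all their transcripts in GENCODE M21. With other lengths the share of Ccnd3 in particular would differ in every group. In culture 5 alone, outside the divergent controls, the 96 h share of Ccnd2 was 42.4% under WM-2474 and 50.1% under WM-8014, and that of Ccnd3 17.5% and 15%. Shares and ratios are given without a test, since 3 libraries against 3 cannot reach an exact permutation p below 0.10.

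The E-type cyclin genes, whose products activate CDK2 at the start of S phase, were both lower with WM-8014. Ccne2 (Entrez 12448, chromosome 4, 11190433 to 11204779) was at 11.9, 10.9 and 10.6 CPM under WM-2474 at 96 h and at 7.2, 8.59 and 7.78 CPM under WM-8014. At 240 h it was at 8.15, 11.1 and 10.5 CPM under WM-2474 and 5.95, 6.36 and 5.02 CPM under WM-8014. Neither pair of groups overlapped, and culture 5 was the lowest of the 240 h controls. Ccne2 fell by 0.48 at 96 h (SE 0.121, adjusted p = 0.00658) and by 0.77 at 240 h, or 1.71-fold (SE 0.124, adjusted p = 3.24e-05). The 240 h call held under every alternative (adjusted p of at most 0.00502). The 96 h call was lost without culture 5 in all groups (0.06), with libraries thinned to the smallest total (0.0514) and without the divergent controls (0.0757), in a range of 0.00132 to 0.0757. The Integrator subunit gene Ints8 lies on the opposite strand and shares 609 exon bases with Ccne2. It differed by -0.06 at 96 h (adjusted p = 0.286) and fell by 0.13 at 240 h (adjusted p = 0.0117, 0.00494 to 0.149 over the alternatives), less than Ccne2.

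Ccne1 (Entrez 12447, chromosome 7, 38097984 to 38107490) was at 35.3, 38.3 and 36.9 CPM under WM-2474 and 27.5, 33.7 and 31.3 CPM under WM-8014 at 96 h. At 240 h the values were 33.3, 35.7 and 37.6 CPM against 28.9, 31.4 and 26.5 CPM. The groups were apart at both times. Ccne1 fell by 0.26 at 96 h (SE 0.0737, adjusted p = 0.0145) and by 0.29 at 240 h (SE 0.0724, adjusted p = 0.00279). At 96 h the call was lost without the 96 h control library of culture 6 (adjusted p = 0.0523) or 7 (0.0598) or both (0.383), without the inhibitor library of culture 5 (0.107), without culture 5 (0.101) or 7 (0.0733) in all groups, and with thinned libraries (0.0844), in a range of 0.00323 to 0.383. At 240 h it was lost without culture 7 in all groups (0.125, in a range of 0.000313 to 0.125). Per kilobase, the sum of both E-type cyclins was 22.3 ± 0.633 CPM under WM-2474 and 18.2 ± 1.81 CPM under WM-8014 at 96 h, and 21.3 ± 1.51 and 16.6 ± 1.46 CPM at 240 h. Ccne1 made up 83.0 to 89.7% of it in every library.

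Of the kinase genes, Cdk6 rose with WM-8014 at 240 h and Cdk2 and Cdk4 fell at both times. The windows around the annotated starts of Cdk2, Cdk4 and Cdk6 (250 bases before and 50 after, RefSeq, GRCm38.p6) are shown because each holds a word searched for. The window of Cdk6 lies at a start within the gene, downstream of the first base of the gene span given below. Capitals mark an E2F word (TTTCCCGC, TTTCGCGC, TTTGCCGC or TTTGGCGC, either strand) or the E-box CACGTG, which reads the same on both strands. No match of one kind overlapped the other.
Cdk2, chr10:128705002-128705301, minus strand: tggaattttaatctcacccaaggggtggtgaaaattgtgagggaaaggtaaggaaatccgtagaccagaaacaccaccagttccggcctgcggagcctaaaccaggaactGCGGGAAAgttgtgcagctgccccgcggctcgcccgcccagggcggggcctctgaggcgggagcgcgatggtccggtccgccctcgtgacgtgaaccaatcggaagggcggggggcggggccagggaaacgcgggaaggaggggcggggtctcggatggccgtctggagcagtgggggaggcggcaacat
Cdk4, chr10:127063285-127063584, plus strand: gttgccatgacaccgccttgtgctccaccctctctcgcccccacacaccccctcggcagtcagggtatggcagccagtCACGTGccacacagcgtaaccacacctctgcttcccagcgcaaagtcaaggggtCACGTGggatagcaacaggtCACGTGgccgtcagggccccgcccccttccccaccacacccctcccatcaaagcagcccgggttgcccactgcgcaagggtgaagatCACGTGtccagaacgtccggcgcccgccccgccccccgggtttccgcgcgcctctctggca
Cdk6, chr5:3343643-3343942, plus strand: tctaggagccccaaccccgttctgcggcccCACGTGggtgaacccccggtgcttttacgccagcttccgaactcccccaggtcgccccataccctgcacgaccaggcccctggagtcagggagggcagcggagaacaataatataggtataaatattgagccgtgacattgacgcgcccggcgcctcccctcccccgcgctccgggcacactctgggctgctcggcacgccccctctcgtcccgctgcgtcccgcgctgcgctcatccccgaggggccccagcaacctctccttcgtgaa
The Cdk2 window holds 1 E2F word, TTTCCCGC on the opposite strand, 140 to 133 bases before the start, and such a word is found in 2.26% of 32851 windows of this length. The Cdk4 window holds 4 E-boxes, the nearest 11 to 6 bases before the start, and that of Cdk6 holds 1. An E-box is present in 7.15% of all windows and more than 1 in 0.594%. These are matches of letters only, and binding was not measured.

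Cdk4 (Entrez 12567, chromosome 10, 127063535 to 127067288), the partner of the D-type cyclins with the higher level here, was at 326, 328 and 326 CPM under WM-2474 at 96 h and 302, 314 and 296 CPM under WM-8014. The 240 h values were 278, 292 and 298 CPM under WM-2474 and 241, 236 and 229 CPM under WM-8014. All 6 inhibitor libraries lay below the controls of their time. Cdk4 fell by 0.10 at 96 h (SE 0.0348, adjusted p = 0.0375) and by 0.30 at 240 h (SE 0.035, adjusted p = 5.61e-07, at most 0.000143 over the alternatives). The 96 h call rested on most of the libraries. Its adjusted p was 0.0777, 0.0925 and 0.0967 without control library 5, 6 or 7, 0.107 and 0.131 without inhibitor library 5 or 7, and 0.302 without the divergent controls. It was 0.165, 0.086 and 0.18 without culture 5, 6 or 7 in all groups and 0.183 with thinned libraries, in a range of 0.0254 to 0.302. The tetraspanin gene Tspan31, which shares 641 exon bases with Cdk4 on the opposite strand, differed by -0.03 at each time (adjusted p = 0.637 and 0.593).

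Cdk6 (Entrez 12571, chromosome 5, 3341004 to 3531008), the other partner of the D-type cyclins, went the other way. It was at 10.0, 8.75 and 10.5 CPM under WM-2474 and 12, 11.7 and 10.8 CPM under WM-8014 at 96 h, a log2 difference of 0.22 (95% interval -0.0014 to 0.43, adjusted p = 0.147). At 240 h it was at 9.54, 12.6 and 11.1 CPM under WM-2474 and 15.5, 14.7 and 15.4 CPM under WM-8014, without overlap. Cdk6 rose there by 0.44, or 1.36-fold (SE 0.0965, adjusted p = 0.000762, at most 0.0272 over the alternatives). The deposited length of Cdk6 is 2470 bases, against 13989 exon bases over all its transcripts in GENCODE M21, so its counts may cover part of its transcripts only, and the same numbers for Cdk4 are 1347 and 3249. On the deposited lengths, Cdk4 exceeded Cdk6 by 61.7 ± 6.11 times with WM-2474 and 48.4 ± 2.11 times with WM-8014 at 96 h, and by 48.4 ± 5.52 and 28.4 ± 1.01 times at 240 h. Culture 5 alone gave 59.7 and 46.1 times at 96 h. Cdk6 therefore made up 1.44 to 1.73% of the pair in the 96 h controls and 3.29 to 3.52% in the 240 h inhibitor libraries.

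Cdk2 (Entrez 12566, chromosome 10, 128697938 to 128705051), the kinase of the E-type cyclins, was at 41.0, 39.7 and 41.6 CPM under WM-2474 and 37.1, 35.1 and 35.0 CPM under WM-8014 at 96 h. The 240 h values were 40.0, 37.1 and 38.7 CPM under WM-2474 and 24.4, 27.1 and 28 CPM under WM-8014. The 240 h inhibitor group stood alone, below all 9 other libraries. Cdk2 fell by 0.19 at 96 h (SE 0.0559, adjusted p = 0.0153) and by 0.53 at 240 h, or 1.44-fold (SE 0.0566, adjusted p = 1.69e-07, at most 0.000159 over the alternatives). At 96 h the call was lost without control library 7 (0.0924), without inhibitor library 6 (0.0543) or 7 (0.0539), without culture 6 (0.0827) or 7 (0.183) in all groups, without the divergent controls (0.209) and with thinned libraries (0.202), in a range of 0.0116 to 0.209. Pmel, a pigment cell gene that shares 34 exon bases with Cdk2 on the other strand, was at most at 1.38 CPM and differed by -0.15 and 0.48 (adjusted p = 0.762 and 0.124).

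The pocket protein genes moved apart. Rb1 (Entrez 19645, chromosome 14, 73192858 to 73325951), the retinoblastoma gene, was at 25.3, 26.8 and 24.9 CPM under WM-2474 and 26.7, 26.6 and 26.7 CPM under WM-8014 at 96 h, a log2 difference of 0.06 (95% interval -0.07 to 0.19, adjusted p = 0.522). At 240 h it was at 28.4, 24.7 and 26.6 CPM under WM-2474 and 38.0, 37.9 and 39.7 CPM under WM-8014. The first 3 groups overlapped one another and the 240 h inhibitor libraries lay above all of them. Rb1 rose there by 0.54, or 1.45-fold (SE 0.058, adjusted p = 1.66e-07, at most 0.000104 over the alternatives). The receptor gene Lpar6 lies within Rb1 on the other strand and shares 408 exon bases with it. Lpar6 differed by -0.21 at 96 h and by -0.13 at 240 h (adjusted p = 0.104 and 0.26), opposite in sign to Rb1.

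Rbl1 (Entrez 19650, chromosome 2, 157145893 to 157204534) encodes p107, a pocket protein that is itself an E2F target and is abundant in dividing cells. It was at 25.3, 31.4 and 28.5 CPM under WM-2474 and 24.2, 22.3 and 20.4 CPM under WM-8014 at 96 h, and at 22.9, 23.2 and 21.0 CPM and 15.1, 14.2 and 14.1 CPM at 240 h. The ranges were apart at both times, but culture 5 differed little between the compounds at 96 h. Rbl1 fell by 0.35 at 96 h (SE 0.078, adjusted p = 0.0024) and by 0.64 at 240 h, or 1.56-fold (SE 0.0826, adjusted p = 2.13e-06, at most 0.000395 over the alternatives). Without the divergent controls the 96 h difference was -0.18 (adjusted p = 0.399). The call was also lost without culture 6 (0.0501) or 7 (0.0636) in all groups, in a range of 0.000191 to 0.399. The window around its start is shown because it holds an E2F word (capitals), TTTCGCGC, 18 to 11 bases before the start.
Rbl1, chr2:157204485-157204784, minus strand: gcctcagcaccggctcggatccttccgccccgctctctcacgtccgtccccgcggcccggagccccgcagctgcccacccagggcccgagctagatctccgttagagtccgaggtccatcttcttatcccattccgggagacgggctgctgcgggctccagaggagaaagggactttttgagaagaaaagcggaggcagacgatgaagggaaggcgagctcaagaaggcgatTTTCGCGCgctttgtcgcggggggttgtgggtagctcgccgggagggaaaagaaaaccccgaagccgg
The window of Ccne1 and the pair of windows of Ccnd3 hold neither an E2F word nor an E-box, which says only that these letters are not in those bases. Windows were matched for 6 of the 10 genes. The others, Ccnd1, Ccnd2, Ccne2 and Rb1, are named only.

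Per kilobase, Rb1 and Rbl1 were at about equal levels in the 96 h controls and Rb1 led in the other groups. The ratio of Rb1 to Rbl1 was 1.07 ± 0.0918 under WM-2474 and 1.41 ± 0.12 with WM-8014 at 96 h, and 1.39 ± 0.125 and 3.12 ± 0.173 at 240 h. In culture 5 alone it was 1.17 and 1.29 at 96 h. Its lowest 240 h inhibitor value, 2.94, was above the highest value elsewhere, 1.53. The sum of both genes was 10.8 ± 0.75 and 9.88 ± 0.344 CPM per kilobase at 96 h and 9.88 ± 0.433 and 11 ± 0.196 CPM per kilobase at 240 h. Rbl2, which encodes p130, the pocket protein most abundant in resting cells, rose with WM-8014 by 0.23 at 96 h (adjusted p = 0.005) and by 0.21 at 240 h (adjusted p = 0.00426). Its 96 h call was lost without culture 5 (0.0813) or 7 (0.0916) in all groups and without the divergent controls (0.13), in a range of 0.00154 to 0.13. Counted with Rbl2, Rb1 made up 27.3 ± 0.524 and 27.3 ± 1.13% of the pocket protein transcripts at 96 h and 31.4 ± 0.674 and 40.2 ± 0.172% at 240 h. The share of Rbl1 was 25.7 ± 1.71 and 19.5 ± 1.38% at 96 h and 22.6 ± 1.78 and 12.9 ± 0.676% at 240 h.

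**Figure D3:**
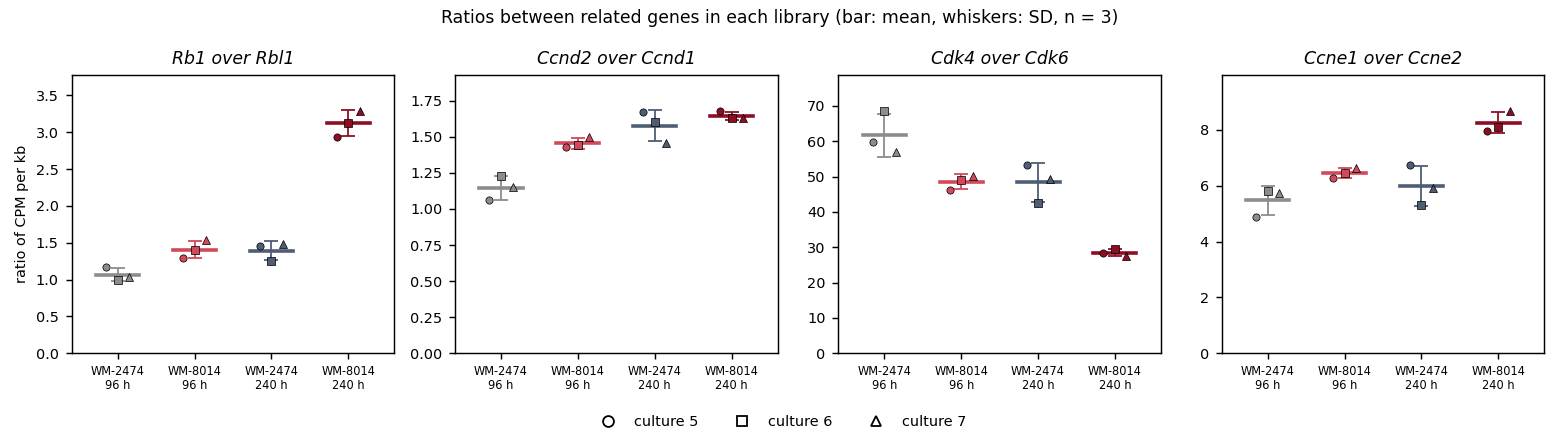
Ratios of CPM per kilobase between related genes in each library, by compound and time, with means (bars) and SD (whiskers, n = 3) and axes from 0. The ratio of Rb1 to Rbl1 is highest, and that of Cdk4 to Cdk6 lowest, in the 3 libraries of WM-8014 at 240 h, at 3.12 ± 0.173 and 28.4 ± 1.01.

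Whether the compound effect changed with time was tested as the difference between the effects at 240 h and 96 h. It passed for 4 of the 10 genes, 2 higher and 2 lower, against 5.15% and 5.53% of all genes. The effect on Rb1 was 0.48 higher at 240 h (SE 0.0851, adjusted p = 0.000724, at most 0.0335 over the alternatives) and that on Ccnd1 0.43 higher (SE 0.0699, adjusted p = 0.000545, at most 0.0153). Cdk2 fell further with WM-8014 at 240 h than at 96 h, with a difference of -0.33 (SE 0.0797, adjusted p = 0.00888). Cdk4 did too, with -0.20 (SE 0.0493, adjusted p = 0.0124). The call for Cdk2 was lost without culture 5 (0.13) or 6 (0.0566) in all groups, with thinned libraries (0.165) and without the divergent controls (0.104), in a range of 0.00608 to 0.165. That for Cdk4 was lost without culture 6 (0.175) or 7 (0.0942) and without the divergent controls (0.115), in a range of 0.00382 to 0.175. Without the divergent controls the differences themselves were again -0.33 and -0.20. The difference did not pass for Ccne2 (-0.29, 95% interval -0.65 to 0.07), Rbl1 (-0.28, -0.52 to -0.05), Cdk6 (0.23, -0.07 to 0.52) or Ccnd2 (0.15, 0.02 to 0.27), with adjusted p of 0.345, 0.123, 0.362 and 0.133. For Ccnd2 the adjusted p was 0.0299 without the culture 5 control library of 96 h, in a range of 0.0299 to 0.873. For Ccnd3 and Ccne1 the difference was -0.02 (-0.13 to 0.09) and -0.03 (-0.24 to 0.19), with adjusted p of 0.877 and 0.914 and with the other sign in 3 and 4 of 21 alternatives.

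Between 96 h and 240 h several of these genes also changed with the inactive compound. Under WM-2474, 2 of the 10 rose and 2 fell, near the 19.8% and 19.1% of all genes, so these counts are not particular to the set. Ccnd2 rose by 0.64 (SE 0.0431, adjusted p = 1.54e-10) and Ccnd1 by 0.18 (SE 0.0493, adjusted p = 0.00626), while Rbl1 fell by 0.35 (SE 0.0748, adjusted p = 0.000804) and Cdk4 by 0.17 (SE 0.0346, adjusted p = 0.000364). The call for Ccnd1 was lost without culture 6 in all groups (0.0539) and, with that for Rbl1, without the divergent controls (0.118 and 0.326). Their ranges over the alternatives were 0.000127 to 0.118 and 8.95e-05 to 0.326, and the log2 fold change of Rbl1 was -0.17 in that last case. Cdk6 differed by 0.16 (95% interval -0.04 to 0.37, adjusted p = 0.208), and by 0.27 without the culture 5 control library of 240 h (0.0417, in a range of 0.0417 to 0.996). For Ccnd3, Ccne1, Ccne2, Cdk2 and Rb1 the log2 differences were between -0.14 and 0.07 and did not pass.

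Under WM-8014, 4 of the 10 genes rose and 4 fell over the same time, against 24.8% and 25% of all genes. Ccnd2 rose by 0.79 (SE 0.0432, adjusted p = 2.33e-12), Ccnd1 by 0.61 (SE 0.0496, adjusted p = 9.55e-09), Rb1 by 0.53 (SE 0.0603, adjusted p = 1.99e-07) and Cdk6 by 0.39 (SE 0.101, adjusted p = 0.00265). Rbl1 fell by 0.63 (SE 0.0858, adjusted p = 2.43e-06), Cdk2 by 0.42 (SE 0.0591, adjusted p = 4.6e-06), Cdk4 by 0.37 (SE 0.0352, adjusted p = 1.44e-08) and Ccne2 by 0.43 (SE 0.135, adjusted p = 0.0114). For Ccne2 the adjusted p was 0.0603 without the culture 6 inhibitor library of 96 h, 0.0625 without the culture 7 inhibitor library of 240 h and 0.121 without culture 7 in all groups, in a range of 0.00175 to 0.121. Ccnd3 and Ccne1 differed by 0.05 and -0.08 (95% intervals -0.03 to 0.13 and -0.24 to 0.08). Changes over time and compound effects share libraries and are given side by side only. Time in culture and the time of harvest cannot be told apart.

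**Figure D4:**
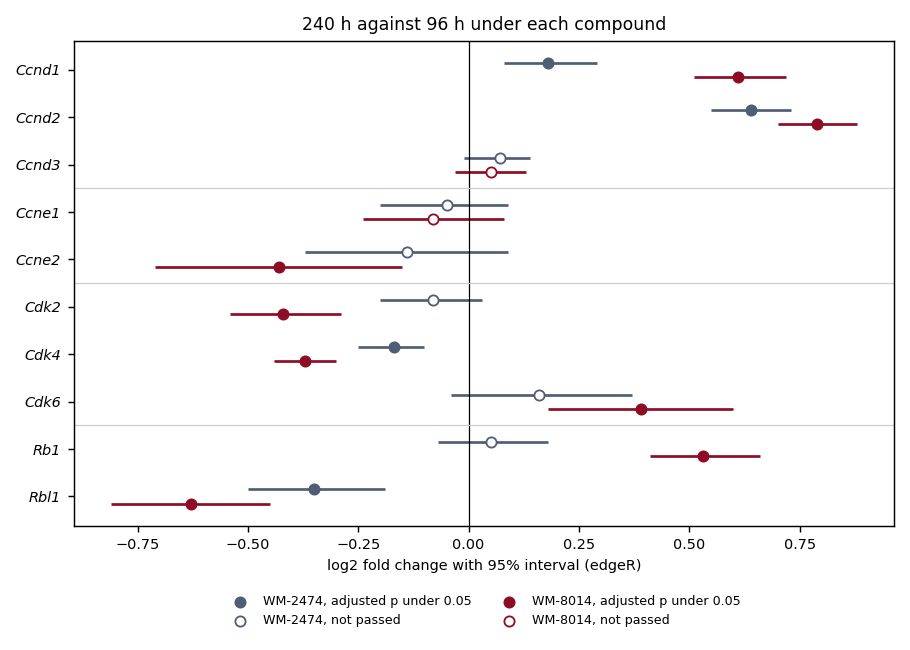
Log2 fold change between 240 h and 96 h with its 95% interval for the 10 genes under WM-2474 and under WM-8014. Filled points passed an adjusted p of 0.05; Rb1 is at 0.05 under WM-2474 and 0.53 under WM-8014, and Cdk2 at -0.08 and -0.42.

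The genes around these 10 in the G1 pathway were followed through a list of 54 others in 9 sub-lists, all of which passed the filter. With WM-8014, 7 rose and 23 fell at 96 h and 10 rose and 28 fell at 240 h, where 10.9% and 11.8% of all genes rose and fell at 96 h and 21.2% and 21.4% at 240 h, with median log2 fold changes of -0.14 and -0.23. Without the divergent controls 2 rose and 5 fell at 96 h, at a median of -0.16, and 9 rose and 27 fell at 240 h. Of the 7 CDK inhibitors, 3 rose and 2 fell at 96 h (2 and 0 without the divergent controls) and 3 rose and 3 fell at 240 h. Cdkn2a, which encodes p16INK4a, an inhibitor of CDK4 and CDK6, as well as ARF, went from 160.3 ± 4.96 to 378 ± 17.3 CPM at 240 h (log2 fold change 1.24, adjusted p = 1.69e-11). Cdkn2b, which encodes p15INK4b, another inhibitor of these kinases, rose from 113 ± 2.46 to 197 ± 4.92 CPM, by 0.80 (adjusted p = 5.21e-12). Cdkn1b, which encodes p27, an inhibitor of cyclin E and CDK2, fell from 44.5 ± 0.983 to 23.4 ± 0.592 CPM, by 0.93 (adjusted p = 2.43e-09). The families did not split by direction. The INK4 genes Cdkn2c and Cdkn2d fell at 240 h, at -1.28 and -0.63 (adjusted p = 1.14e-08 and 2.68e-06). The CIP/KIP gene Cdkn1a rose, at 0.37 (adjusted p = 6.04e-08), and Cdkn1c did not pass (-0.91, adjusted p = 0.054).

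Over all genes tested, 11.8% fell at 96 h and 21.4% at 240 h. All 4 genes of S and G2 cyclins and their kinase fell at both times. So did 4 of 5 CDK phosphatases and kinases at 96 h and all 5 at 240 h. Without the divergent controls 1 of each group passed at 96 h, and the counts at 240 h were again 4 and 5. Ccna2, the cyclin that follows cyclin E on CDK2, went from 70.4 ± 3.21 to 27.1 ± 3.92 CPM at 240 h (-1.36, adjusted p = 5.6e-08). Cdk1, the mitotic kinase, fell by 0.88 (adjusted p = 1.1e-08), and Cdc25a, a phosphatase that activates CDK2, by 0.41 at 96 h and 0.46 at 240 h (adjusted p = 0.000152 and 1.03e-05).

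Of 10 E2F and DP factors, 2 rose and 3 fell at 96 h and 2 rose and 5 fell at 240 h. At 96 h without the divergent controls 0 rose and 1 fell in this sub-list, 0 and 0 in the DREAM sub-list, 0 and 2 in that of degradation, and 0 and 0 in those of chaperones and of genes upstream of cyclin D. E2f7, a repressor of E2F targets, fell by 1.37 at 240 h (adjusted p = 5.96e-10), while E2f6, a repressor that binds no pocket protein, rose by 0.75 (adjusted p = 4.04e-10). Of 7 other pocket protein and DREAM complex genes, 1 rose at each time, namely Rbl2, and 4 fell, with Mybl2 at -1.46 at 240 h (adjusted p = 4.43e-09). Of 11 genes of cyclin and inhibitor degradation, 1 rose and 4 fell at 96 h and 2 rose and 5 fell at 240 h. Over all genes tested, 10.9% rose and 11.8% fell at 96 h, and 21.2% and 21.4% at 240 h. The counts of rising degradation genes, and of rising E2F and DP factors at 240 h, lay near these shares. Skp2, the ubiquitin ligase subunit that marks p27 for degradation, fell by 0.43 and 0.73 (adjusted p = 0.000643 and 5.57e-07), and Fbxo5, an inhibitor of the anaphase-promoting complex, by 0.58 and 1.41 (adjusted p = 4.62e-05 and 2.85e-10). Of 3 CDK chaperones and subunits 1 fell at 96 h and 2 at 240 h. None of the 3 CDK-activating kinase genes passed at 96 h, and Cdk7 and Mnat1 did at 240 h, at 0.15 and 0.16 (adjusted p = 0.00966 and 0.0408), calls lost in 4 and 10 of 21 alternatives, where they reached 0.216 and 0.292. Of 4 genes upstream of cyclin D, Jun fell by 0.30 at 96 h (adjusted p = 0.00339, or 0.0699 without the divergent controls), and none passed at 240 h, where Myc, whose product binds E-boxes, was at 75.5 ± 6.95 and 74.2 ± 6.07 CPM.

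**Figure D5:**
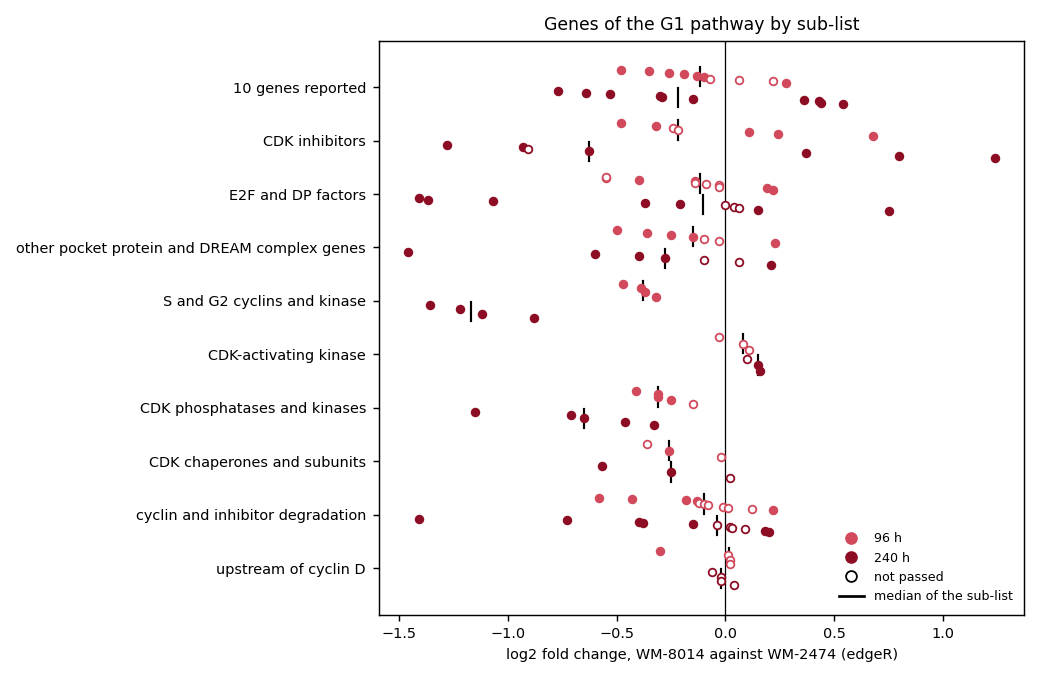
Log2 fold changes of WM-8014 against WM-2474 at 96 h (light) and 240 h (dark) for the 10 genes and for 54 other G1 pathway genes by sub-list. Filled points passed an adjusted p of 0.05 and ticks are medians; all 4 genes of S and G2 cyclins and their kinase lie below 0, with medians of -0.38 and -1.17.

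Ccnd2, Rbl1 and Ccne2 had the widest ranges of group means, 1.07, 0.96 and 0.94 on the log2 scale. Over the 12 libraries, the genes closest to Ccnd2 in centred log2 CPM were Serinc3, Msrb1 and Cryab, with root mean square differences of 0.0779, 0.078 and 0.0828. Those closest to Rbl1 were Cdkn2d, which encodes the CDK4 and CDK6 inhibitor p19INK4d, Anp32e and Lmnb2, at 0.104, 0.105 and 0.106. Those closest to Ccne2 were Skp2, Epop and Hmga2-ps1, at 0.0902, 0.102 and 0.118, the last a relative of Hmga2 that may share its reads. Among the 10 genes themselves, Cdk2 and Cdk4 were closest, at 0.119, followed by Ccnd1 and Rb1, at 0.128. Ccnd2 and Rbl1 were farthest apart, at 0.742. The measure reflects the 4 shared groups and is a description of these libraries.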

How the data were processed

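The authors deposited raw read counts per Entrez gene for 12 libraries, made with featureCounts on mm10, per the submitters' processing notes, and a gene length in bases, another column with no unit in the file header. The sources used here do not name the aligner, annotation, strand setting or versions, so reads of overlapping genes may not be separated. Libraries were prepared with a stranded poly(A) kit, per the labels' protocols. Symbols and coordinates came from RefSeq on GRCm38.p6 (25275 of 27179 identifiers, 93%), promoter windows from RefSeq, exon overlaps from GENCODE M21, on the same build.

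The counts were fitted with edgeR 4.0.16 (R 4.3.3), after filterByExpr by group (14136 genes), TMM scaling, a mean per group over all 12 libraries (common biological coefficient of variation 4.64%), and robust quasi-likelihood F tests, two-sided, with Benjamini-Hochberg adjustment over all genes and calls under 0.05. Each SE is the absolute log2 fold change over the root of F. Log2 CPM used a prior count of 2. The fit was also run on simulated counts drawn without a culture effect, and since the outcome is not given here it lends the fit no support. Replicate libraries differed by more than counting noise (chi-square per degree of freedom 2.1 to 7.13). The submitters name the cultures biological replicates, and the p-values measure the spread between these. The intervals cover the spread between libraries, and the 3-read limit counting error only.

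The members, lists and alternatives were chosen with earlier results of these data known. Named genes were the 10 members, Rbl2, up to 2 genes a sub-list with the smallest p at each time (25 in all with Rbl2, not all printed), the 3 genes nearest to each of 3 members among those with a mean log2 CPM of at least 3, and Mki67, Top2a and Pcna as context. Genes that overlap a member, Cdkn1a, Cdkn1c, Cdkn2c, Myc, Misp3, Ddx3y and the muscle markers were named after their values were seen. At 96 h same-numbered cultures deviated together from their group means (correlations across genes 0.141, 0.15 and 0.158). At 240 h (0.0636, 0.243 and 0.0475) and over time not all passed the limit of 0.1. The printed tests held no culture term, at 96 h too, and the block was an alternative only. Where 3 of 3 cultures are given, libraries were matched by number, also at 240 h. Alternatives were DESeq2 1.42.0, its size factors, no low-count filter, the culture number as a block, leaving out libraries or cultures, and thinning to the smallest total.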

Additional observations from a re-analysis of the deposited data

Results flagged for a closer look

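For 4 of the 10 genes the WM-8014 effect differed between the times by a test of that difference itself. The difference was higher for 2 and lower for 2, against 5.15% and 5.53% of all genes tested. The effect at 240 h minus that at 96 h was 0.43 for Ccnd1 (log2, edgeR adjusted p = 0.000545), where the effect went from -0.07 to 0.36, and 0.48 for Rb1 (adjusted p = 0.000724), from 0.06 to 0.54. It was -0.33 for Cdk2 (adjusted p = 0.00888), from -0.19 to -0.53, and -0.20 for Cdk4 (adjusted p = 0.0124), from -0.10 to -0.30. Leaving out the divergent controls (WM-2474 at 96 h, cultures 6 and 7) left the differences of Cdk2 and Cdk4 at -0.33 and -0.20 but no longer past the threshold (adjusted p = 0.104 and 0.115), and those of Ccnd1 and Rb1 were kept (0.0153 and 0.0335). Groups of 3 libraries were not searched for outlying samples.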

How the results depend on the processing

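Of 10 genes, the number that passed was 7 at 96 h, 10 at 240 h, 4 for the change of effect, 4 over time under WM-2474 and 8 under WM-8014. Over all genes tested, 10.9% rose and 11.8% fell at 96 h, and 21.2% and 21.4% at 240 h. For the change of effect the shares were 5.15% higher and 5.53% lower. Over time they were 19.8% and 19.1% under WM-2474, near the count of the 10 genes, and 24.8% and 25% under WM-8014. With the culture number as a replicate block the number of the 10 that passed was again 7 at 96 h. The block, DESeq2, its size factors and the absence of a filter changed no call of the 10 genes in any of the 5 comparisons. Leaving out libraries or cultures gave 3 to 7, 9 to 10, 2 to 5, 3 to 5 and 7 to 8. Without the divergent controls the counts were 1 at 96 h, 2 for the change of effect and 2 over time under WM-2474, and thinning gave 2 at 96 h. Fewer libraries or reads are part of these settings. No called value changed sign. Values near 0 did: in the change of effect, Ccnd3 ran from -0.05 to 0.01 and Ccne1 from -0.13 to 0.09 when libraries were left out. Over time under WM-2474, Ccne2 ran from -0.24 to 0.02 and Cdk6 from -0.0011 to 0.27, and Ccne1 was 0.01 without both libraries. Thinned to the smallest total, 10147466 reads, all 10 calls at 240 h were kept, and for those lost elsewhere the cause was not tested.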
